A study of Drosophila melanogaster with 2 samples.

Results

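The small ribosomal subunit protein genes of Drosophila melanogaster were examined for binding of Medea at their promoters. The members were the protein-coding genes of the Ensembl annotation whose symbol is RpS followed by a digit, together with sta, the gene of the small subunit protein SA, and they numbered 39 of 13945 protein-coding genes on the main chromosome arms. Medea, encoded by Med, was mapped by chromatin immunoprecipitation and sequencing with an antibody against GFP. The embryos came from a transgenic line that carries Med with GFP fused at its C terminus, were 0 to 24 h old, of both sexes and used whole. The 2 libraries form a single group (biological replicates 2 and 3, from separate biosamples of 1 line), with no contrast between conditions, so the values describe where the authors found peaks and how the replicates compare. No statistical test was run on any of them. Whole embryos of this age range mix many cell types, which the peaks cannot separate.

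Medea is the common Smad of the fly, which joins the receptor-activated Smads Mad and Smox and acts with them in the nucleus on genes that respond to Dpp and activin signals. The proteins encoded by the members bind the 18S ribosomal RNA and form the subunit that decodes messenger RNA, and loss of 1 gene copy causes the Minute phenotype of slow development and short bristles for many of them. Fly ribosomal protein genes are known for a polypyrimidine initiator, the TCT element, in which transcription starts at a C followed by T residues. Many housekeeping promoters of the fly, some of them of ribosomal protein genes, also carry the DRE, the site of the factor DREF, or Motif 1, the site of the factor M1BP.

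To show the promoters that the results turn on, windows of 75 bases from 60 upstream of the canonical start to 15 into the transcript are given for the strongest member, RpS27, for RpS25 and RpS6, which hold both a DRE and a TCT element, and for both copies of 4 duplicated genes. Letters are the transcribed strand of Release 6, 5′ to 3′. Capitals mark a DRE (TATCGATA, either strand), the core of Motif 1 (GGTCACAC, either strand) or a TCT element, taken as a C or T followed by CTTT with that C within 5 bases of the start. RpS25 and RpS6 show a DRE upstream and a TCT element at the start. RpS5a, RpS5b, RpS14a and RpS19a show a TCT element alone, and the DRE of RpS14a begins just upstream of its window. The remaining windows hold no DRE, Motif 1 core or TCT element as defined here. Those of RpS14b, RpS10b and RpS19b hold TCTTT or CCTTT, but more than 5 bases from the start. RpS10b also has a DRE, at -86, upstream of its window.
RpS27 (chr3R:25247500-25247574, minus strand): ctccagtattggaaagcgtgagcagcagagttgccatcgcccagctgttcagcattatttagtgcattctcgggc
RpS25 (chr3R:11216273-11216347, minus strand): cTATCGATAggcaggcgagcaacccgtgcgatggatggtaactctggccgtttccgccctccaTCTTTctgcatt
RpS6 (chrX:7901317-7901391, minus strand): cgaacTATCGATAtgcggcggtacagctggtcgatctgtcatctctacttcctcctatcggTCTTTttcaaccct
RpS5a (chrX:17148250-17148324, minus strand): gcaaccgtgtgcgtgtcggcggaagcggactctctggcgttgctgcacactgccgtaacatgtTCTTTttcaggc
RpS5b (chr3R:14901549-14901623, minus strand): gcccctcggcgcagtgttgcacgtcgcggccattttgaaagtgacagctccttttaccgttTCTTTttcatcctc
RpS10b (chrX:19597980-19598054, plus strand): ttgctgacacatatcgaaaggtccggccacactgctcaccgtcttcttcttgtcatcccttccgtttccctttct
RpS10a (chr3R:27652700-27652774, plus strand): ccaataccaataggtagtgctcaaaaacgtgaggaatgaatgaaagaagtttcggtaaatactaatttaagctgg
RpS14a (chrX:7933682-7933756, plus strand): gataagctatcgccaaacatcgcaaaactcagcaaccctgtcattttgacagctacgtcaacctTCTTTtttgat
RpS14b (chrX:7934838-7934912, plus strand): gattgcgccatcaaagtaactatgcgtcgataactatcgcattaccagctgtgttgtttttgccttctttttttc
RpS19a (chrX:16637834-16637908, plus strand): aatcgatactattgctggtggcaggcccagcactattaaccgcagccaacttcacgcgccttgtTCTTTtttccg
RpS19b (chr3R:23933516-23933590, minus strand): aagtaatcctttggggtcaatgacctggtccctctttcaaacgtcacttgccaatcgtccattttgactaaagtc

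Med summits lay at the promoters of most members, and for 23 of the 29 occupied ones within 100 bp of a start. A summit within 1000 bp of a start of the gene was found for 29 of 39 members in the reproducible list, the authors' optimal list of 5867 peaks. These are the strongest of the peaks called on both replicates together, and a peak among them need not have been called in each replicate. The 29 members are 74.4% (Wilson 95% interval 58.9 to 85.4, counting error only), against 31.3% of all protein-coding genes. In the top lists of the single replicates, the 5867 strongest peaks of each, 30 members had such a summit in replicate 2 and 30 in replicate 3, against backgrounds of 29.7% and 31.8%. In both top lists there were 27 members, or 69.2%, against 24.8% of all genes. With the distance narrowed to 250 bp, 28 members had a reproducible summit, 71.8% against 23.3%. The signal of a peak is the authors' own value, on a scale that they do not state.

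The gene with the strongest promoter peak was RpS27, whose product is a zinc-binding protein of the subunit. Its peak on 3R from 25247329 to 25247811 had a signal of 2576.9 and rank 46 of 5867, with 1017.6 in replicate 2 and 1573.4 in replicate 3. The summit lay 24 bp upstream of the RpS27 start, in the 144 bp between RpS27 and the divergent gene Nup37, which encodes a nuclear pore protein. It stood well above the other members, the next of which had 1084.5.

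The 9 members that follow had signals from 707.3 to 1084.5. RpS20, which encodes a protein of the subunit's head, had 1084.5 (3R from 20821809 to 20822192), with 509.7 in replicate 2 and 589.0 in replicate 3. RpS28b had 1041.7 (X from 9554436 to 9554734), with 364.6 and 686.0. RpS25, whose product is known for a role in initiation at internal ribosome entry sites, had 975.2 (3R from 11216201 to 11216551), with 308.3 and 669.4. Replicate 3 was the higher in each of these genes, with the closest values at RpS20. RpS4 had 908.2 (3L from 13041560 to 13041932), with 313.9 and 649.0. RpS16 had 856.7 (2R from 22605919 to 22606218), with 302.6 and 561.7. RpS29 had 797.7 (3R from 9777901 to 9778159), with 313.3 and 487.2. RpS4 and RpS29 shared their summit with no other protein-coding gene. RpS21, known in the fly for overgrown blood-forming organs when mutant, had 745.1, with 297.0 in replicate 2 and 447.5 in replicate 3. RpS12, a gene known for its role in cell competition between Minute and wild-type cells, had 710.6, with 297.7 and 422.2. RpS10b had 707.3, with 189.6 and 524.7. RpS10b had the highest ratio of replicate 3 to replicate 2 among the 10 strongest members, and no other protein-coding start shared its summit.

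**Figure D1:**
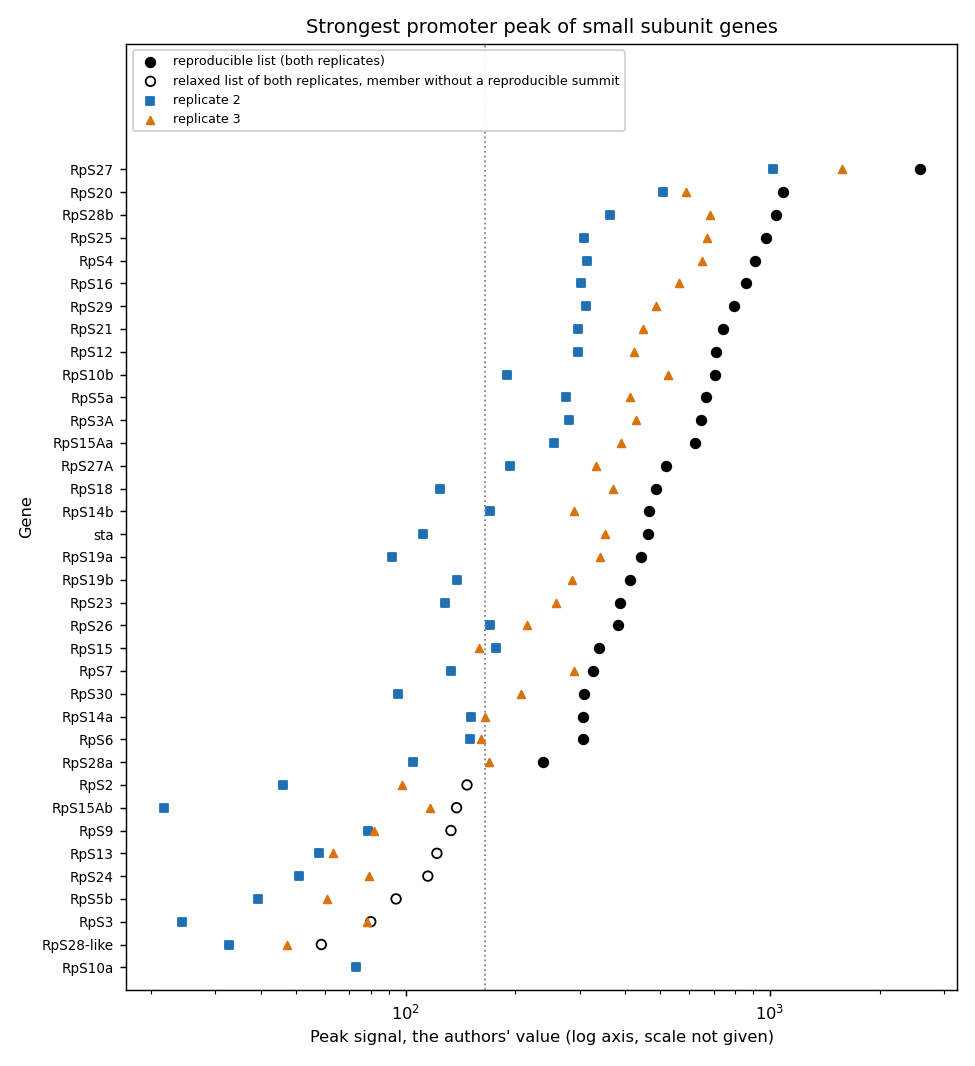
Signal of the strongest promoter peak of the 36 members described by name (log axis), in the reproducible list (filled circles), in replicate 2 (squares) and in replicate 3 (triangles), with the relaxed list of both replicates (open circles) for members without a reproducible summit. The dotted line is the lowest signal of the reproducible list, 164.6. RpS27 stands alone at 2576.9, and RpS2, RpS15Ab and RpS9 lie just left of the line.

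The 29 occupied members had a median signal of 485.5, against 329.4 over the 4360 occupied protein-coding genes, each taken at its strongest promoter peak. Of them 17 lay among the strongest 1466 peaks of the list, 58.6% against 32.4% of all occupied genes. The median width of their peaks was 293 bp, against 334 bp. Every one of the 29 peaks overlapped a relaxed peak in both replicates, as did the strongest peak of 4177 of the 4360 occupied genes. In 28 of 29 the replicate 3 signal was the higher, 96.6% against 72.3% of 4177 occupied genes with both values, and the exception was RpS15 at 177.2 in replicate 2 and 159.2 in replicate 3. By rank within each replicate's own list, which needs no common scale, the peak stood better in replicate 3 for 24 of 29, 82.8% against 45%. The median log2 ratio of replicate 3 to replicate 2 was 0.79 (SD 0.54 over 29 genes), against 0.31 (SD 0.72) over those 4177 genes. The top lists end at 66.1 in replicate 2 and 104.3 in replicate 3, and their scales may differ, so the ratio and the count of signs can be read only against those of all genes. Whether the offset from all genes comes from the replicates' depth or quality was not tested. The median rank of the member peaks was 1823 in replicate 2 and 814 in replicate 3. The Spearman correlation between the replicate signals across the 29 peaks was 0.79, a description over peaks called against the same control.

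High ratios were found at several members. RpS19a had 91.5 in replicate 2 and 340.6 in replicate 3, a log2 ratio of 1.90. The member sta had 111.6 and 353.0 (1.66) and RpS18 had 124.4 and 370.6 (1.58). The 27 members in the top lists of both replicates, given above against 24.8% of all genes, were all among the 29 occupied.

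**Figure D2:**
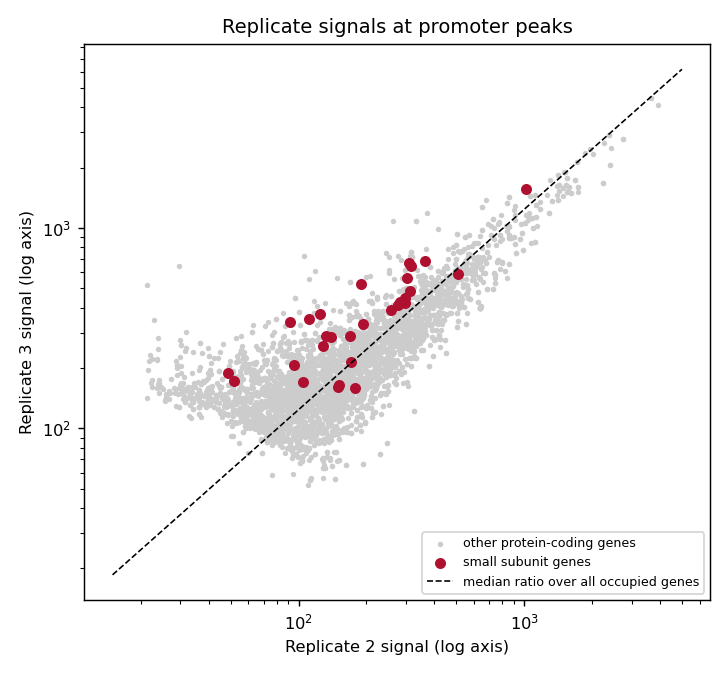
Signal of replicate 3 against replicate 2 (both log axes) at the strongest promoter peak of each occupied protein-coding gene, with the 29 members in red and the median ratio of all genes as a dashed line. Most members lie above the line, and RpS27 is the member farthest to the upper right.

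Summits sat close to the start. The median distance was -29 bp, where minus is upstream, and 23 of 29 summits were within 100 bp of a start of the member, 79.3% against 41.5% of all occupied genes. Of these, 15 were within 30 bp. RpS18 and RpS7 had their summits 3 bp upstream of a start, and sta on an annotated start itself. RpS16 has 2 annotated starts, and its summit was 38 bp upstream of the downstream one and 344 bp downstream of the canonical one. Several other members followed the same pattern. RpS23 had 386.2 at 6 bp upstream, with 128.3 in replicate 2 and 258.6 in replicate 3. RpS26 had 381.8 at 47 bp upstream, with 170.1 and 215.0. RpS7 had 327.4, with 132.9 and 289.9, although its replicate 2 summit lay 153 bp from the summit of the reproducible peak. RpS30, whose product is made as a fusion with a ubiquitin-like protein, had 307.7 at 15 bp downstream, with 95.3 and 207.1. Replicate 3 was the higher in all 4. The summits of both replicates lay within 100 bp of the reproducible summit for 26 of the 29 members. No share over all occupied genes is given for this count. In replicate 2 the median over the occupied members of its top list was -69 bp and in replicate 3 it was -11 bp.

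**Figure D3:**
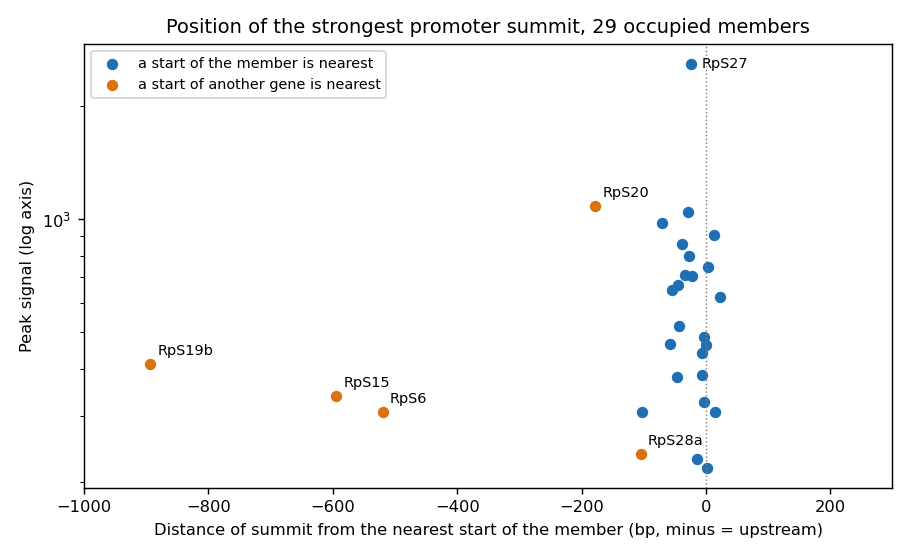
Distance of the strongest promoter summit from the nearest start of the member (bp, minus is upstream) against peak signal (log axis) for 29 members. Blue points lie nearest to the member's own start, and the 5 orange points lie nearer to another gene.

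Many summits were shared with a neighbour at the limit of 1000 bp. Of the 29 strongest summits, 21 lay also within 1000 bp of a start of another protein-coding gene, which in 20 cases lay on the opposite strand. This is 72.4%, against 61.8% of the 4360 occupied genes. The count was 13 of 28 occupied members with promoters of 500 bp and 6 of 28 with 250 bp. It was 5 of 27 where the peak had to overlap both starts. Where a summit counted only for the nearest start it was 1 of 26. No share over all occupied genes is given at these settings, so the fall cannot be compared with theirs. In 16 of the 21 no start of another gene was nearer than that of the member. RpS27A, which encodes ubiquitin fused to a small subunit protein, had its summit 43 bp from both its own start and that of Ip259. Ip259 lies on the same strand as RpS27A and is not a divergent neighbour. The RpS27A peak had 518.6, with 192.6 in replicate 2 and 332.0 in replicate 3. The sta summit was 187 bp from the start of inc, the gene of a Cullin-3 adaptor. RpS18 shared its summit with plu, a regulator of DNA replication in the early embryo. These partners lie farther from the summit than the member does, except Ip259, which is at the same distance.

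In the other 5 a neighbour was nearer. The strongest summit of RpS6, the gene of the target of S6 kinase, lay 520 bp upstream of RpS6 and 29 bp from the start of bys, a ribosome biogenesis gene, and the peak had 307.0, with 149.8 in replicate 2 and 161.3 in replicate 3. RpS6 also had a weaker summit of its own 27 bp downstream of its start, at 207.3, with 56.7 and 150.5. RpS15 likewise had a summit 595 bp upstream and 257 bp from CG4927 at 339.7, and one 60 bp downstream of its own start at 166.6, which overlapped a replicate 3 peak of 164.8 and no replicate 2 peak. For both genes the summit at their own start was the weaker of the pair in the reproducible list. In replicate 3 alone the order was the reverse for RpS15, with 164.8 at its own start and 159.2 upstream. RpS19b was counted through a summit 894 bp upstream, 512 bp from the start of CG5854. The CG5854 start is 382 bp upstream of RpS19b, so the summit lies beyond it and not between the 2 starts. RpS28a had its summit 105 bp upstream, 89 bp from Axn, the gene of the Wingless pathway scaffold Axin. RpS20 had its summit at 178 bp, against 155 bp to CG17271, close to the middle of that divergent promoter.

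A divergent start within 1000 bp upstream was found at 21 members, and 19 of these, 90.5%, were occupied, against 51.6% of the 4755 protein-coding genes with such a start. Of the 18 members without one, 10 were occupied, 55.6% against 20.8% of the 9190 other genes. Members with 1 annotated start were occupied in 12 of 19 cases, 63.2% against 24.9% of all genes with 1 start, and those with 2 starts in 12 of 14, 85.7% against 42.9%. With 3 or more starts it was 5 of 6, 83.3% against 62.3%. All 9 members on X were occupied, against 31.5% of genes on that arm, and RpS3A was occupied on chromosome 4 at 646.5, with 281.4 in replicate 2 and 429.8 in replicate 3. On 2L it was 3 of 6 members against 29.4%, on 2R 4 of 7 against 30.5%, on 3L 3 of 4 against 31.6% and on 3R 9 of 12 against 33.3%. These groups are small, and a gene belongs to several of them.

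The relaxed list holds 30000 peaks called on both replicates together, down to a signal of 45.0. Of the 10 members without a reproducible promoter summit, 9 had one there, 7 of them within 250 bp of a start. No share over all unoccupied genes is given for these counts. With the 29 occupied members included it was 38 of 39, 97.4% against 63.2% of all genes. The reproducible list consists of the strongest 5867 of these peaks, down to a signal of 164.6. Just outside lay RpS2 at 147.2 (46.0 in replicate 2 and 97.7 in replicate 3), with its summit 13 bp upstream of the start. RpS9 followed at 133.0, with 78.7 and 81.8, and RpS13 at 121.7, with 57.7 and 63.1. RpS24 had 114.9, at 531 bp downstream, and 98.4 at 6 bp upstream of its start. Its strongest summit was 50.9 at 623 bp downstream in replicate 2 and 79.0 at 3 bp downstream in replicate 3. Close to the start, replicate 2 had 41.1, at 68 bp upstream. RpS3, whose product is a small subunit protein that also acts on damaged DNA, had 80.1 at 776 bp downstream, and no relaxed summit of the list of both replicates within 250 bp. Its strongest promoter summits lay at different places, 24.3 at 439 bp downstream in replicate 2 and 78.4 at 778 bp downstream in replicate 3. Replicate 3 also had 58.1 at 94 bp downstream of the RpS3 start. Above the limit of 164.6, RpS28a had 237.5, at rank 3718 of 5867. RpS9 and RpS10a reached only the replicate 2 top list and RpS15Ab only that of replicate 3, and 6 of the 10 were in neither.

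Duplicated genes showed unequal copies. The 6 families hold 13 genes, and in 3 of them 1 copy was occupied and the other was not. RpS5a on X had 668.1 in the reproducible list, with 275.4 in replicate 2 and 413.9 in replicate 3. RpS5b on 3R, known for its expression in the female germline, had a relaxed summit 185 bp downstream of its start at 94.0, with 39.2 and 60.9. Their proteins are 79.4% identical, and the canonical starts of both carry a TCT element. RpS10b on X had 707.3, whereas RpS10a on 3R had no promoter summit in the list of both replicates or in replicate 3, and 72.8 in replicate 2. RpS10a and RpS10b proteins are 73.6% identical. RpS15Aa on X had 620.6 (255.7 and 389.9), and RpS15Ab on 2R had a relaxed summit 42 bp upstream at 137.8, with 21.7 in replicate 2 and 116.8 in replicate 3. Their proteins are 97.7% identical. In each of these families the occupied copy is the one on X, and its signal is the higher in each replicate where both copies have a promoter summit, which for RpS10a is replicate 2 alone.

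RpS14a and RpS14b encode identical proteins of 151 residues, part of the platform of the subunit, and are neighbours on X. RpS14b had 464.5 (X from 7934738 to 7934966), with 169.9 in replicate 2 and 289.6 in replicate 3. RpS14a had 307.2 (X from 7933452 to 7933827), with 150.8 and 164.8, and the strongest summits of the replicates lay 174 bp upstream and 36 bp downstream of its start. RpS14a is the weaker copy in both replicates, by less in replicate 2. RpS19a on X had 441.0, with 91.5 in replicate 2 and 340.6 in replicate 3, and RpS19b on 3R had 412.4, with 138.6 and 285.6, at its summit 894 bp upstream. At these summits RpS19b was the higher in replicate 2 and RpS19a in replicate 3, although that of RpS19b lies beyond the start of CG5854. Within 250 bp of the RpS19b start no relaxed summit was found in either replicate or in the list of both. RpS19b is a copy known for its expression in the germline, and its protein is 65.4% identical to that of RpS19a. RpS28b on X had 1041.7, and RpS28a on 3R had 237.5 (104.6 in replicate 2 and 169.6 in replicate 3). RpS28-like on 2L had no reproducible summit. It had 58.6 in the relaxed list, 675 bp downstream of its start and beyond the end of this gene of 424 bp. Its strongest summit lay 783 bp upstream in replicate 2 and 666 bp downstream in replicate 3. RpS28a and RpS28b proteins are 81.5% identical, and that of RpS28-like is 38.2% identical to RpS28b. Every copy was occupied in 2 of the 6 families, RpS14 and RpS19, and with 250 bp as the limit in RpS14 alone. Genes that exist as 1 copy were occupied in 20 of 26 cases and the copies of families in 9 of 13.

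**Figure D4:**
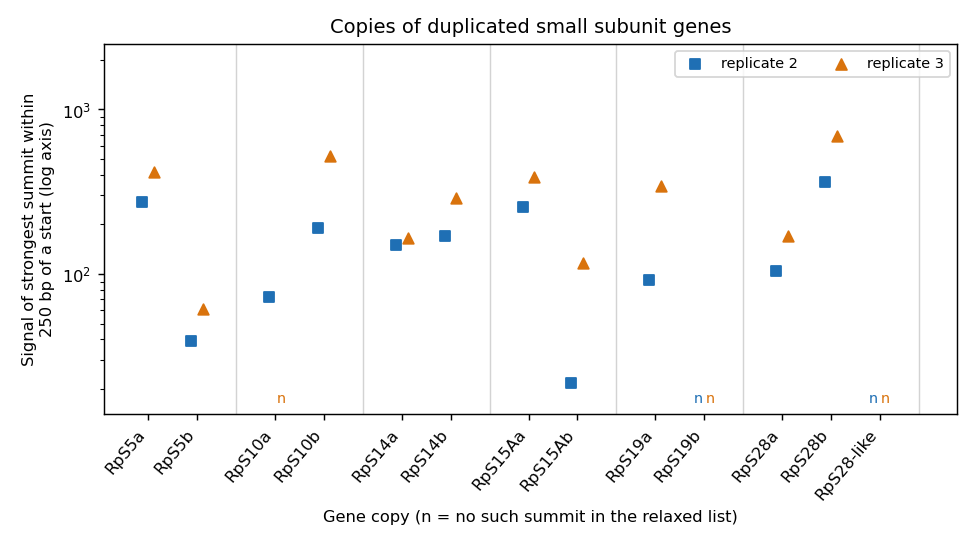
Signal of the strongest summit within 250 bp of a start (log axis) for each copy of the 6 duplicated families, in replicate 2 (squares) and replicate 3 (triangles), where n marks a copy with no such summit in the relaxed list. RpS5a lies above RpS5b, RpS15Aa above RpS15Ab and RpS28b above RpS28a in both replicates, while RpS19b and RpS28-like have no value at this limit and RpS10a has one in replicate 2 only.

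Sequence at the promoters was described in windows from 250 bases before to 50 after the canonical start, on both strands. A TCT element was found at 16 of 39 members, 41.0%, against 2.20% of all protein-coding genes and 42.6% of the large subunit genes. A DRE was found at 13 members, 33.3% against 8.94%, and the core of Motif 1 at 5, 12.8% against 7.54%. The letters CGATA, bound by the insulator factor BEAF and contained in the DRE, were found at 28 members, 71.8% against 46.9%. GAGAG was found at 4 members, 10.3% against 30.2%. In the large subunit genes the DRE was at 27.8%, the core of Motif 1 at 16.7%, CGATA at 70.4% and GAGAG at 22.2%. The letters known for Smads were no more frequent at the members than at all genes. GTCTG was found at 7 members, 17.9% against 29%, GCCGNCGC at 1, 2.56% against 3.36%, and GTCTAGAC at none, against 0.151%. The large subunit genes differed, with GTCTG at 33.3% and GCCGNCGC at 3.7%, both above all genes, and GTCTAGAC at none. CAGGTA, the site of the factor Zelda, was found at 2 members, 5.13% against 6.45%, and the E-box CAGCTG at 6, 15.4% against 17.9%.

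Among the occupied members 13 of 29 had a TCT element, 44.8% against 2.41% of all occupied genes. A DRE was found at 10 of 29, 34.5% against 13.9%. Among the unoccupied members 3 of 10 had each. The TCT members that were unoccupied were RpS24, RpS5b and RpS3, and the DRE members RpS13, RpS15Ab and RpS24. Outside both ribosomal protein lists, 73 of 268 genes with a TCT element were occupied, 27.2%, and 585 of 1219 with a DRE, 48.0%. The share over all protein-coding genes is 31.3%. In 101 bp windows at the strongest summits, a DRE was found at 5 of 29 members, 17.2%, against 5.18% of 3628 other promoter summits, and CGATA at 13, 44.8% against 26.7%. GTCTG was found there at 1 of 29, 3.45% against 10.6%. A match is a match of letters only.

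**Figure D5:**
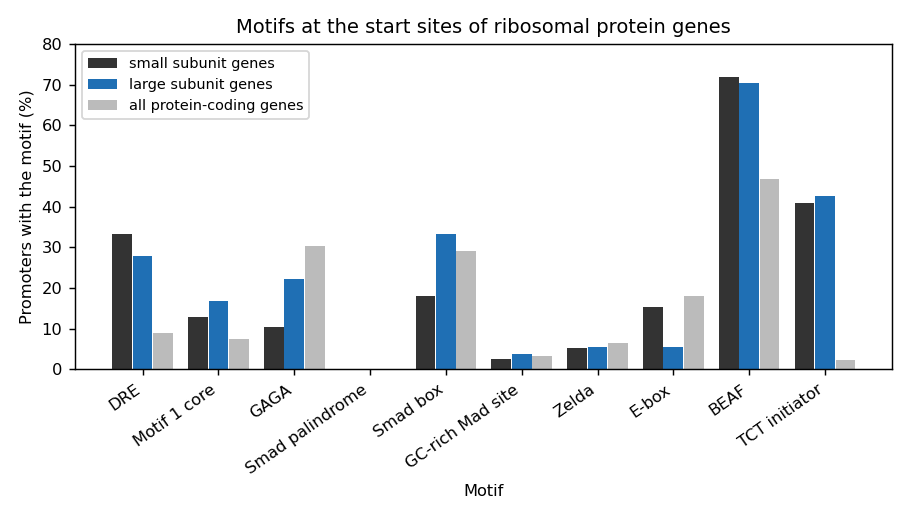
Share of promoters that hold each motif (%), in windows of 300 bases at the canonical start (the TCT initiator within 5 bases of it), for 39 small subunit genes (black), 54 large subunit genes (blue) and all protein-coding genes (grey). The TCT initiator is at 41.0% and 42.6% against 2.20%. The Smad box is at 17.9% in the small and 33.3% in the large subunit genes, against 29% in all genes.

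Of the 2 other ribosomal groups examined, the large subunit genes were the nearer in share, signal and summit position. A reproducible promoter summit was found for 44 of 54, 81.5%, with a median signal of 588.6 and a median distance of -32.5 bp, against 485.5 and -29 bp in the small subunit genes. The Wilson intervals of their shares, 69.2 to 89.6 and 58.9 to 85.4, overlap. The median log2 ratio of the replicates was 1.07 in the large subunit genes and 0.79 in the small. Genes of the mitochondrial small subunit, whose products act in mitochondria, were occupied in 12 of 26 cases, 46.2%, with a median signal of 301.9, a median distance of -193.5 bp and a log2 ratio of 0.01. Of the occupied mitochondrial genes 4 of 12 had their summit within 100 bp, against 23 of 29 small subunit genes.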

How the data were processed

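Per the deposited manifests, the authors made peak lists from alignments of each replicate and of both together, with 1 control file that the replicates share, and an optimal list from these by the irreproducible discovery rate. Fragments were 200 to 800 bp, per the labels. Not given in the sources used here: aligner, peak caller, versions and thresholds. Signal was used as deposited by the authors, on an unstated scale, and read depth is unknown. The deposited −log10 q value has a ceiling and was not used. Only the dm6 lists were used, because no dm3 annotation was used here. The canonical start is that of the Ensembl canonical transcript.

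Genes came from Ensembl release 115 (BDGP6.54) and sequence from RefSeq Release 6. A gene counted as occupied with a summit within 1000 bp of a start of a protein-coding transcript, and its strongest such peak was used. Replicate values at an occupied member came from the replicate's strongest relaxed peak overlapping the reproducible one, and at an unoccupied member from the replicate's strongest promoter summit. Proteins were translated from canonical coding sequences and aligned globally (BLOSUM62, Biopython 1.88, Python 3.11.15). The replicates shared no identical peak. Named genes were the 10 strongest members, all copies of families, members without a reproducible summit, members in 1 top list only, and genes sharing a summit, with other members as examples. Members, families and motifs were chosen with earlier results of these data known. No statistical test was run. The code for promoter assignment was run on 200 simulated summits, and its calls for all of 13945 genes matched the distance rule. This checks the code only, not whether a peak belongs to a gene. Alternatives covered peak list, promoter distance, set of starts and rule of assignment. Values of some genes are not reported here, although counts over all members include them.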

Additional observations from a re-analysis of the deposited data

How the results depend on the processing

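The count of 29 occupied members stayed between 24 and 38 under the 11 alternatives run, with 24 among the 3955 reproducible peaks that had summits of both top lists within 100 bp and 38 in the whole relaxed list. It was 30 with either replicate alone. The count in both top lists, 27, was 24 to 38. The median rank percentile of 78.0 was 67.9 in replicate 2 alone and 85.7 in replicate 3 alone, and the median distance went from -69 to -11 bp. The count of shared summits, 21, was 13 at 500 bp, 6 at 250 bp, 5 where the peak had to overlap a start and 1 where a summit counted only for the nearest start, since fewer starts then qualify, and 19 to 22 with 1 replicate alone. The count of families with every copy occupied, 2, was 1 at 250 bp, at 500 bp, with the nearest start only, with overlap and among peaks in both top lists. It was 4 at 2000 bp, 5 in the whole relaxed list and 3 with either replicate alone. The large subunit share lay between 74.1% and 90.7%. The background of 31.3% was 18.7% in the strongest 2933 peaks of the list, where 26 members (66.7%) were occupied, 18.3% with overlap, where 27 (69.2%) were, and 63.2% in the whole relaxed list, where the members' 97.4% is read against a high base. No paired analysis was possible because there is 1 group. Depth is unknown, so a missing summit does not show absence of binding.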

Other observations

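Small nucleolar RNA genes lay inside 13 of the 39 members on the same strand, 43 in all and 14 of them in RpS5a. Of those 13 hosts 11 had a reproducible promoter summit, and of the 26 other members 18 had one. The shares of hosts and of occupied hosts over all protein-coding genes are not given, so these counts stand without a background. No 36-base stretch of the strongest promoter peak of any of the 29 occupied members recurred elsewhere on the main arms, also not at the neighbouring copies RpS14a and RpS14b. RpS28b and RpS12 each had a second, weaker promoter summit upstream. That of RpS28b was 792 bp away at 414.5 (176.5 in replicate 2 and 247.3 in replicate 3). That of RpS12 was 615 bp away at 246.5 (90.2 and 155.0). Both lay nearer to a divergent start, that of l(1)G0320 873 bp upstream of RpS28b and that of Adk2 664 bp upstream of RpS12. RpS28a had a second summit 544 bp downstream, beyond the end of that short gene, at 168.4. It overlapped a replicate 3 peak of 160.9 and no replicate 2 peak.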
